A study of Mus musculus with 58 samples.

Results

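Cell cycle exit genes were followed in 4310 single cells of the embryonic mouse pancreas, from E12.5 to E18.5. The 5 genes, Cdkn1a, Cdkn1b, Cdkn1c, Gadd45a and Btg2, are 5 of the 19699 genes in the table. They were chosen by name, with earlier results of these data known, so counts of members called are descriptive only. All 5 passed the filter on low counts in every comparison. Wells with at least 2000 transcripts and 500 genes entered, and the genes were described against Neurog3, Fev, the hormones, and Top2a or Mki67 in the same cell.

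Cells came from pregnant mip-gfp females, whose embryos carry green fluorescent protein under an insulin promoter, so that the fluorescence marks cells with insulin promoter activity. Embryonic pancreas was dispersed with trypLE and sorted into 384-well plates, either as all live cells or as MIP-GFP positive cells, and sequenced by SORT-seq, a plate method that tags each transcript molecule near its 3′ end. There were 7 experiments, named EP by the submitters. The stage of EP11 and EP18 was E12.5, that of EP12 was E13.5 and that of EP14 was E14.5. The later ones were EP10 with EP17 (E15.5) and EP16 alone (E18.5). The MIP-GFP libraries of EP11, EP16 and EP18 carry another stage in their titles than in their stage characteristic, which was the one used. The number of embryos behind an experiment is not given in the sources used here, so the spread between experiments may be partly technical.

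Exit from the cell cycle is a step of endocrine differentiation. Trunk epithelium that carries Sox9 and Spp1 divides, the transcription factor Neurog3 commits cells to the endocrine fate, and Fev marks the later precursors that go on to make insulin, glucagon and the other islet hormones. Cyclin-dependent kinases drive cells into S phase, and the Cip/Kip proteins encoded by Cdkn1a, Cdkn1b and Cdkn1c bind and inhibit them. Gadd45a encodes a stress-inducible growth arrest protein and Btg2 an antiproliferative protein of the BTG/TOB family. Cdkn1a, Gadd45a and Btg2 are textbook targets of p53, and Cdkn1c is imprinted.

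The genes lie at chr17:29090976-29100727 (Cdkn1a, plus strand), chr6:134920401-134925513 (Cdkn1b, plus), chr7:143458339-143461050 (Cdkn1c, minus), chr6:67035096-67037457 (Gadd45a, minus) and chr1:134075170-134079120 (Btg2, minus) in GRCm38. The promoters of Cdkn1a, Gadd45a and Btg2 are shown because these are the 3 members that were higher in Neurog3-gated cells. Each run is the 250 bases ahead of the RefSeq start on the gene's own strand (GRCm38.p6), at chr17:29090729-29090978, chr6:67037408-67037657 and chr1:134079156-134079405. Capitals mark an E-box (CANNTG, the site class of Neurog3 and other basic helix-loop-helix factors) or a p53 half-site, both searched on both strands.
Cdkn1a: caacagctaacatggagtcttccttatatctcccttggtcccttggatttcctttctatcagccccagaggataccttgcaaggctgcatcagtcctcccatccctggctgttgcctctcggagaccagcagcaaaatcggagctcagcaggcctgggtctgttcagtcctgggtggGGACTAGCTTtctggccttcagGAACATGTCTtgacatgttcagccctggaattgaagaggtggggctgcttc
Gadd45a: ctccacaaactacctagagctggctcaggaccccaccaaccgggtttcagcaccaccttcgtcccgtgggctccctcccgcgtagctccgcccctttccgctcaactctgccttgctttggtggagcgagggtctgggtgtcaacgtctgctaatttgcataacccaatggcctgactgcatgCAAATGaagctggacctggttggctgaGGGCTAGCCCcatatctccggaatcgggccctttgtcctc
Btg2: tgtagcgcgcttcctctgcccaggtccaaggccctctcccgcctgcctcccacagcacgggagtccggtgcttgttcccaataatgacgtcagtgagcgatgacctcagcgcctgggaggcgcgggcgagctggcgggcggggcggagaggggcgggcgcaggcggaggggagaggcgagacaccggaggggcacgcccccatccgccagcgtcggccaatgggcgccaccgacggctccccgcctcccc
The Cdkn1a run held 2 p53 half-sites, which began at -73 and -51 from the start. The Gadd45a run held 1 E-box at -67 and 1 p53 half-site at -40. The Btg2 run held neither motif. Among 32851 windows of the same length, 66.2% held the E-box and 7.13% the p53 half-site, so the E-box was common in any window. A second Cdkn1a start, at chr17:29093519-29093768, had 1 E-box at -187, and Cdkn1b had neither motif.

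Cells were grouped by transcripts counted in the same well. The Sox9/Spp1 gate (epithelial cells with at least 2 Sox9 and Spp1 transcripts in sum, no Neurog3 or Fev, and acinar genes under 1% of transcripts) held 428 cells. The Neurog3 gate (at least 2 Neurog3, no Fev) held 143 cells, the Neurog3+Fev gate (at least 2 of each) 134 and the Fev gate (at least 2 Fev, no Neurog3) 376. The insulin and glucagon gates (a hormone at 1% of transcripts or more and 3 times every other hormone) held 1000 and 572 cells. Median depth lay between 17490 and 22766 transcripts a cell in these 6 gates. The sorts differed between gates: 96 of 143 Neurog3-gated and 416 of 428 Sox9/Spp1-gated cells came from live plates. MIP-GFP plates gave 108 of 134 Neurog3+Fev-gated, 311 of 376 Fev-gated, 663 of 1000 insulin-gated and 532 of 572 glucagon-gated cells. Sort and plate therefore differ along with the gate in these comparisons. Genes that define a gate were not compared across it.

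Levels are counts per 1000000 transcripts (CPM) of the summed cells of an experiment, where the gate had at least 10 cells. They compare 1 gene across gates, not genes with each other. Cdkn1a, Gadd45a and Btg2 rose in Neurog3-gated cells relative to Sox9/Spp1-gated cells, and Cdkn1b and Cdkn1c did not pass the test. These were 3 of 5 members, against 12.9% of the 11730 genes tested by edgeR's quasi-likelihood test with Benjamini-Hochberg adjustment.

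Cdkn1a was at 859.2, 1065, 1111 and 494.8 CPM in the Neurog3 gate (EP10, EP11, EP12 and EP14), against 58.9, 187.8, 75.32 and 86.84 CPM in the Sox9/Spp1 gate of the same experiments. The gates did not overlap: the highest of all 7 Sox9/Spp1 sums was EP11, at 187.8 CPM, and the lowest was EP17, at 29.34 CPM. Means were 882.5 ± 281 CPM in the Neurog3 gate (SD, n = 4) and 94.6 ± 57.6 CPM in the Sox9/Spp1 gate (SD, n = 7). The log2 difference was 3.26 ± 0.307 (SE, adjusted p = 3.1e-09), and on live plates alone it was 2.85 (adjusted p = 6.2e-05). With every cell thinned to 2000 transcripts, 55.9% of Neurog3-gated cells (Wilson 95% interval 47.8 to 63.8%) had a Cdkn1a transcript, against 15.4% of Sox9/Spp1-gated cells (12.3 to 19.2%) and 1.91% of mesenchyme-gated cells. Without thinning the shares were 90.2%, 53.7% and 13.4%, and the intervals cover counting error only.

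Gadd45a was at 573.7, 1098, 848.5 and 470.4 CPM in the Neurog3 gate of EP10, EP11, EP12 and EP14, against 25.01, 32.56, 33.71 and 17.06 CPM in the Sox9/Spp1 gate. Every Neurog3 sum lay above every Sox9/Spp1 sum, whose highest was 33.71 CPM over 7 experiments. The log2 difference was 4.53 ± 0.203 (SE, adjusted p = 4.1e-16), and on live plates alone it was 4.50 (adjusted p = 7.3e-09). At equal depth 50.3% of Neurog3-gated cells had a Gadd45a transcript (42.2 to 58.4%), against 4.91% of Sox9/Spp1-gated cells (3.23 to 7.38%), 5.10% of mesenchyme-gated and 3.08% of acinar-gated cells. Without thinning these shares were 73.4%, 33.4%, 21.7% and 23.8%. Gadd45a is overlapped on the opposite strand by E230016M11Rik, which averaged 1.36 CPM in the Neurog3 gate and 1.74 CPM in the Sox9/Spp1 gate; whether counting used the strand is not given in the sources used here.

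Btg2 differed less. It was at 471.9, 448.1, 516.5 and 349.9 CPM in the Neurog3 gate (EP10, EP11, EP12, EP14), against 475.2, 177.4, 66.71 and 158.2 CPM in the Sox9/Spp1 gate. In EP10 the 2 gates were level, and in the other 3 experiments the Neurog3 gate was higher. The log2 difference was 1.10 ± 0.290 (SE, adjusted p = 0.01004). It did not pass without EP12 (0.65, adjusted p = 0.188), without EP11 (1.02, adjusted p = 0.058), on live plates alone (0.99, adjusted p = 0.071) or without the experiment block (0.61, adjusted p = 0.481). The Sox9/Spp1 sums of Btg2 spread from 66.71 to 674.9 CPM, and the summed level of 24 immediate early and dissociation genes spread with them: it was 9409, 8406 and 8954 CPM in EP10, EP17 and EP16, where Btg2 was at 475.2, 674.9 and 439.4 CPM, and between 2098 and 4369 CPM in the other 4, where Btg2 was at 66.71 to 177.4 CPM. The Neurog3 gate did not share this order, since EP12 had its lowest sum (1728 CPM) and its highest Btg2 (516.5 CPM), and neither did the Neurog3+Fev gate, where EP12 had 2592 CPM and again the highest Btg2 (677 CPM). Of the 24 genes 3 fell in the Neurog3 gate relative to the Sox9/Spp1 gate, among them Myc (-1.83) and Klf6 (-1.50), and none rose. The part of these genes in the Btg2 result was not tested.

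Cdkn1b was at 49.8 ± 20.6 CPM in the Neurog3 gate (SD, n = 4) and 66.2 ± 29.1 CPM in the Sox9/Spp1 gate (SD, n = 7). Its log2 difference was -0.13, with 2 standard errors spanning -0.49 to 0.23 (adjusted p = 0.71). Cdkn1c was at 673 ± 52.7 CPM in the Neurog3 gate and 489.7 ± 338 CPM in the Sox9/Spp1 gate, a log2 difference of 0.04 with a span of -0.57 to 0.65 (adjusted p = 0.967). The Sox9/Spp1 sums of Cdkn1c were widely spread, from 146.7 CPM in EP17 to 1166 CPM in EP10. At the Neurog3 step a rise was thus measured for Cdkn1a, Gadd45a and Btg2, and not for Cdkn1b or Cdkn1c. The Cdkn1c comparison includes collagen-bearing cells, which are described with the mesenchyme gate below. Whether these levels take part in cell cycle exit was not tested.

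**Figure D1:**
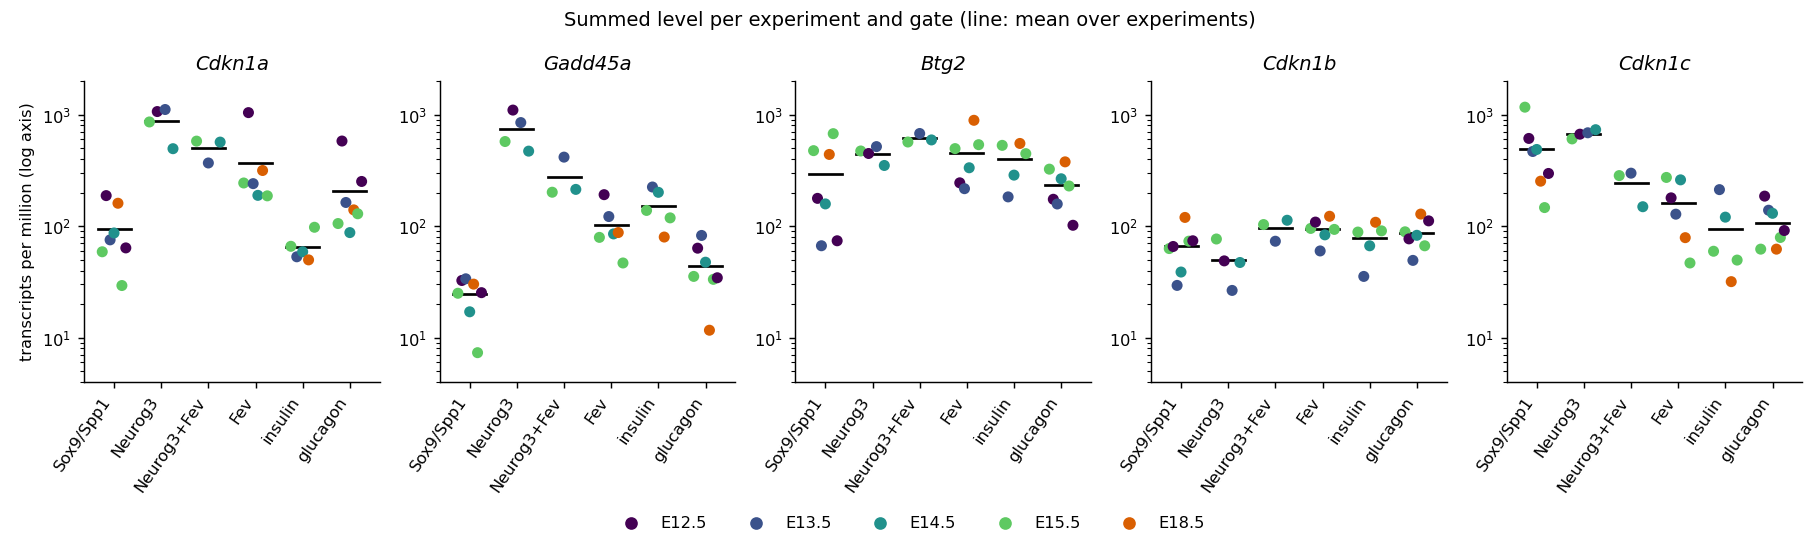
Summed level of each gene (vertical log axis, CPM) in 6 gates; points are experiments, coloured by stage, and lines are means. The 4 Neurog3 sums of Cdkn1a and Gadd45a stand above all 7 Sox9/Spp1 sums, whereas the Cdkn1b means stay between 49.8 and 96.5 CPM across the gates.

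Of 6 genes on a list of further Btg, Tob and Gadd45 genes tested, 3 rose and none fell in the Neurog3 gate relative to the Sox9/Spp1 gate. They were the family members Gadd45g (log2 2.93) and Tob1 (0.93), and Gadd45gip1 (0.80), which encodes a mitochondrial ribosome protein that binds Gadd45 proteins and is not of the family. Of 15 p53 targets tested, 4 rose and none fell, led by Trp53inp1 (1.40), Bax (0.52) and Mdm2 (0.47), which restrains p53 itself. The median over the 15 was 0.13, against -0.02 over all genes. None of 4 other CDK inhibitors tested was called by edgeR or DESeq2, and none had an unadjusted p under 0.05. The G1 genes Ccnd1 (-1.84), Cks1b (-0.67) and E2f3 (-0.66) fell, 3 of 13 tested, and the retinoblastoma gene Rb1 rose (1.17). The S phase and the G2 and M phase genes did not pass: 0 of 16 and 0 of 19 were called by edgeR or by DESeq2, with medians of -0.44 and -0.63 and 2 genes of each list at an unadjusted p under 0.05. At equal depth, Top2a or Mki67 was found in 21.7% of Neurog3-gated cells and 43.7% of Sox9/Spp1-gated cells. Per experiment the share was lower in the Neurog3 gate in 4 of 4, by a mean of 19.4 percentage points less (difference -19.4 ± 15.6, SD); the exact two-sided sign-flip permutation test gave p = 0.125, the smallest that 4 experiments allow.

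Within the Neurog3 gate, Cdkn1a, Gadd45a and Btg2 were higher in cells with more Neurog3 when cells were not thinned, and Cdkn1b and Cdkn1c did not pass. Neurog3-gated cells were split at the median Neurog3 share of their experiment. Median Neurog3 was 1.228, 2.661, 8.222 and 1.158 per 10000 in the low class (EP10, EP11, EP12, EP14). In the high class it was 48.84, 30.53, 65.28 and 50.33. The gate sets no epithelial or acinar condition, so low-class cells need not be endocrine precursors. Cdkn1a was at 1235, 1611, 1667 and 784.2 CPM in the high class (EP10, EP11, EP12, EP14), against 671.7, 662.5, 630.5 and 294.6 CPM in the low class. Gadd45a was at 1469, 1841, 1498 and 1127 CPM in the high class, against 126.8, 550.8, 286.2 and 16.52 CPM in the low class. Btg2 was at 782.3, 591, 732.7 and 636.9 CPM in the high class, against 317, 342.8, 329.2 and 151.4 CPM in the low class. In all 3 genes the classes did not overlap, and the share of all genes without overlap was not counted.

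The high class rose over the low class by a log2 difference of 1.22 ± 0.138 for Cdkn1a (adjusted p = 9.3e-04), 3.03 ± 0.471 for Gadd45a (adjusted p = 0.00332) and 1.30 ± 0.203 for Btg2 (adjusted p = 0.00339), in edgeR's quasi-likelihood test with Benjamini-Hochberg adjustment. These were 3 of 5 members, against 14.6% of the 6174 genes tested. Cdkn1b (-0.21, adjusted p = 0.725) and Cdkn1c (-0.25, adjusted p = 0.478) did not pass. Of the S phase genes 8 of 15 fell, among them Gins2 (-2.73), Uhrf1 (-2.43) and Rrm2 (-1.89), and of the G2 and M phase genes 5 of 18, led by Birc5 (-1.85). The share of cells with Top2a or Mki67 was 76.9%, 36.4%, 26.9% and 0% in the high class, against 71.4%, 75%, 44.4% and 64.3% in the low class, so EP10 did not share the direction of the other 3 experiments. Depth moved with the classes: the median was 14011 transcripts in the high class of EP10 and 29167 in its low class, with the high class shallower in all 4 experiments. When cells were thinned to 2000 transcripts before they were gated and split, none of the 342 genes tested was called (20 at an unadjusted p under 0.05), and the values were -0.34 for Cdkn1a, 1.05 for Gadd45a and 0.53 for Btg2, with adjusted p between 0.655 and 0.891.

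Epithelial cells with neither Fev nor a gated hormone were also binned by Neurog3 transcripts per 10000, at 0, above 0 to 2, above 2 to 5, above 5 to 10 and above 10, with 724, 104, 14, 11 and 75 cells. Pooled Cdkn1a was at 129, 171, 533, 1470 and 1368 CPM across these bins. Pooled Gadd45a was at 27.4, 21.7, 52.3, 211 and 1384 CPM, and Btg2 at 258, 180, 294, 298 and 735 CPM. In these pools Cdkn1a was already near its highest level in the bin above 5 to 10, where Gadd45a had not reached its own; the 2 middle bins hold 14 and 11 cells, with no experiment giving 10, so the order of the 2 genes has no replicate. In the bins that do have replicates, Gadd45a was at 24.7 ± 9.06 CPM at 0 (SD, n = 7), 26.8 ± 18.9 CPM above 0 to 2 (n = 4) and 1481 ± 327 CPM above 10 (n = 4). Cdkn1c stayed between 537 and 746 CPM in the 5 pools and Cdkn1b between 30.9 and 53.3 CPM. Cells with Top2a or Mki67 made up 73.2%, 77.9%, 64.3%, 36.4% and 36% of the bins, while the median depth was 18339, 26521, 20979, 17106 and 15899 transcripts.

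**Figure D2:**
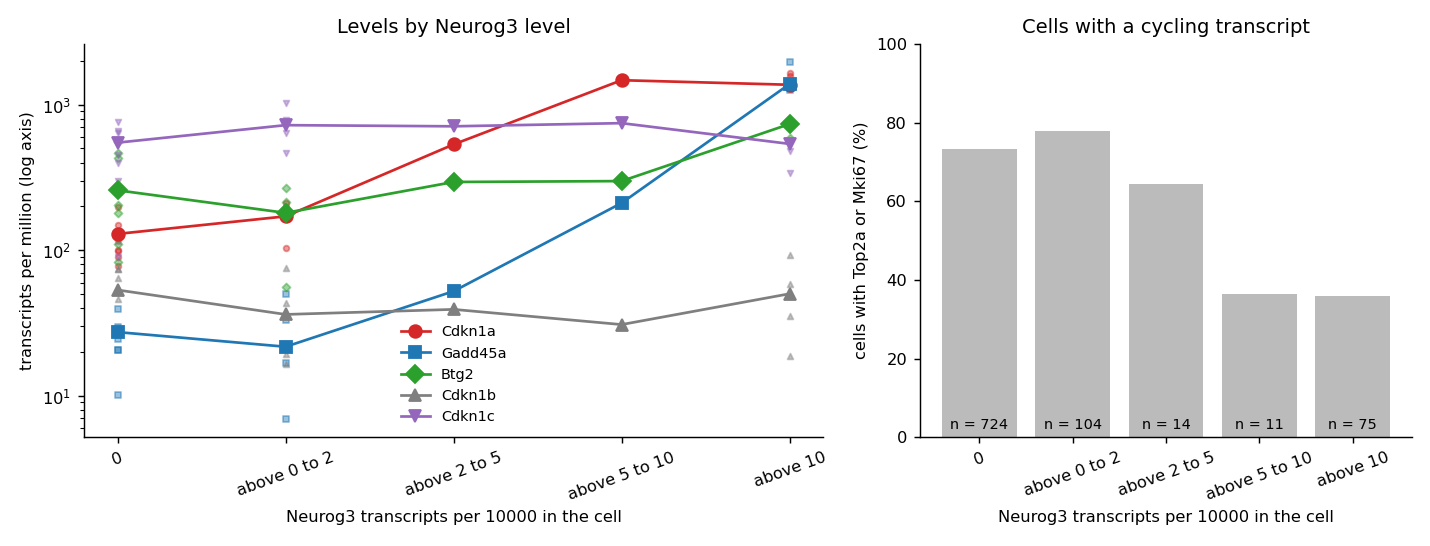
Left, level of each gene (vertical log axis, CPM) by Neurog3 transcripts per 10000 in the cell; lines join pooled cells and small points are experiments with at least 10 cells. Right, share of cells with Top2a or Mki67 in percent, with cell numbers. Gadd45a stays at 21.7 to 27.4 CPM in the lowest 2 bins and reaches 1384 CPM in the highest, while the cycling share goes down to 36%.

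In single cells, all of Cdkn1a, Gadd45a and Btg2 were detected in 91 of 143 Neurog3-gated cells (63.6%), 84 of 134 Neurog3+Fev-gated cells (62.7%) and 167 of 376 Fev-gated cells (44.4%), against 77 of 428 Sox9/Spp1-gated cells (18.0%), at median depths of 17490, 17652, 19099 and 18085 transcripts. The products of the 3 single-gene shares were 59.3%, 62.6%, 39.8% and 12.7% in these gates, so joint detection lay little above what the single genes give in the Neurog3 and Neurog3+Fev gates. Levels varied widely among Neurog3-gated cells: Cdkn1a had a median of 5.46 per 10000 transcripts and a highest of 90.9, with 14 of 143 cells at 0. Gadd45a had a median of 3.89 and a highest of 44.3 per 10000, with 38 cells at 0.

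When Fev was detected as well, the members parted. Relative to Neurog3-gated cells, Gadd45a and Cdkn1c fell in Neurog3+Fev-gated cells, Cdkn1b rose, and Cdkn1a and Btg2 did not pass. These were 3 of 5 members, against 29.2% of the 11734 genes tested. The gates compared here and in the next step share the Neurog3 sums. Gadd45a was at 201.4, 415.7 and 213.5 CPM in the Neurog3+Fev gate (EP10, EP12, EP14), against 573.7, 848.5 and 470.4 CPM in the Neurog3 gate of those experiments, a log2 difference of -1.31 ± 0.214 (adjusted p = 3.6e-05). It was lower in 3 of 3 experiments.

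Cdkn1c was at 284, 298.5 and 149.3 CPM in the Neurog3+Fev gate, against 605.4, 687.1 and 732.4 CPM in the Neurog3 gate, without overlap. Its log2 difference was -1.53 ± 0.380 (adjusted p = 0.00306); without EP14 it was -1.19 (adjusted p = 0.0802) and on live plates alone -2.01 (adjusted p = 0.103). Cdkn1b was at 103.3, 73.22 and 112.9 CPM in the Neurog3+Fev gate, against 76.67, 26.52 and 47.2 CPM in the Neurog3 gate, a log2 difference of 1.06 ± 0.204 (adjusted p = 2.7e-04). The groups overlapped, with EP10 of the Neurog3 gate above EP12 of the Neurog3+Fev gate, and the Cdkn1b call was lost on MIP-GFP plates alone (0.59, adjusted p = 0.202), in thinned cells (1.33, adjusted p = 0.447) and without the experiment block (0.90, adjusted p = 0.125).

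Cdkn1a was at 578.4, 368.4 and 566.9 CPM in the Neurog3+Fev gate, against 859.2, 1111 and 494.8 CPM in the Neurog3 gate; EP14 went the other way from EP10 and EP12. The log2 difference was -0.47 (adjusted p = 0.328), whereas on MIP-GFP plates alone it was -1.43 (adjusted p = 9.5e-05), in thinned cells -2.05 (adjusted p = 0.00185), with only these 2 gates in the fit -0.68 (adjusted p = 0.0483) and on live plates alone -0.05 (adjusted p = 0.987). Btg2 was at 568, 677 and 592.9 CPM in the Neurog3+Fev gate, its highest mean of any gate, against 471.9, 516.5 and 349.9 CPM in the Neurog3 gate. The log2 difference of Btg2 was 0.39 (adjusted p = 0.417), and with only these 2 gates in the fit it was 0.45 (adjusted p = 0.0219).

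At this step the cell cycle genes fell together. All 16 S phase genes and all 19 G2 and M phase genes were lower in Neurog3+Fev-gated cells, with median log2 differences of -2.83 and -3.10, among them Uhrf1 (-4.08), Mcm3 (-3.67), Bub1b (-4.09) and Cenpe (-4.02). Of 13 G1 cyclins and kinases 10 fell, among them Ccnd1 (-3.76) and Skp2 (-2.28). Of 4 other CDK inhibitors tested, 2 rose and 1 fell. Cdkn2d rose (1.06), with 107 transcripts in the Neurog3+Fev gate and 51 in the Neurog3 gate. Cdkn2b rose on few counts, 7 transcripts in the Neurog3+Fev gate and 0 in the Neurog3 gate, which makes it at least 2.58-fold higher against a floor of 3 counts over the Neurog3 gate. Cdkn3, a phosphatase gene that peaks in dividing cells, fell, with 3 transcripts in the Neurog3+Fev gate and 29 in the Neurog3 gate. Rb1 rose (0.99) and its relative Rbl1 fell (-2.26). None of the 6 genes of the Btg, Tob and Gadd45 list was called by edgeR or DESeq2, with 1 at an unadjusted p under 0.05. Markers of other epithelium were lower as well: 8 trunk and duct markers summed to 612 CPM in the Neurog3+Fev gate (493 to 741) and 2672 CPM in the Neurog3 gate (1644 to 3898), and 6 acinar markers to 115 CPM (32.7 to 253) and 1385 CPM (151 to 2861), with none at 0. Top2a or Mki67 was found at equal depth in 57.7% of acinar-gated cells, and the part of such cells in the cell cycle result was not tested. At equal depth Top2a or Mki67 was found in 5.97% of Neurog3+Fev-gated cells and 21.7% of Neurog3-gated cells.

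In Fev-gated cells, 4 of 5 members passed against Neurog3-gated cells, where 35.7% of genes did. Gadd45a fell by 2.71 on the log2 scale (SE 0.187, adjusted p = 7.1e-12), with 46.73 to 191.5 CPM over 6 Fev sums, against 470.4 to 1098 CPM over 4 Neurog3 sums. Cdkn1c fell by 1.75 (SE 0.319, adjusted p = 7.9e-05), with 46.73 to 273.3 CPM in the Fev gate and 605.4 to 732.4 CPM in the Neurog3 gate. Cdkn1a fell by 1.60 (SE 0.297, adjusted p = 9.8e-05). Cdkn1b rose by 0.69 (SE 0.178, adjusted p = 0.00271), with 59.92 to 122.6 CPM in the Fev gate and 26.52 to 76.67 CPM in the Neurog3 gate. Btg2 did not pass (-0.60, adjusted p = 0.107), but was called in 5 of 23 alternatives: MIP-GFP plates alone (-0.95, adjusted p = 0.0176), thinned cells (-1.004, adjusted p = 6.0e-04), at least 5 Neurog3 transcripts (-0.97, adjusted p = 0.00322), without collagen-bearing cells (-0.76, adjusted p = 0.0255) and without EP10 (-0.83, adjusted p = 0.0338).

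The Cdkn1b call at the Fev step was lost on MIP-GFP plates alone (0.32, adjusted p = 0.438), on live plates alone (0.86, adjusted p = 0.103), in thinned cells (1.26, adjusted p = 0.0711) and without the experiment block (0.82, adjusted p = 0.094), and the Cdkn1c call was lost on live plates alone (-0.86, adjusted p = 0.288). All 16 S phase and all 19 G2 and M phase genes were again lower, with medians of -2.20 and -2.43. The p53 target Sesn2 (2.74) rose and Trp53inp1 (-0.71) fell, and Tob1 (-0.83) and Btg1 (-0.58) fell.

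The Cdkn1a level of Fev-gated cells varied with the experiment. It was 243.7, 1042, 240.5, 188.8, 315.4 and 186.9 CPM in EP10, EP11, EP12, EP14, EP16 and EP17, so EP11 at E12.5 stood at the level of Neurog3-gated cells and the other 5 below all of them. Without EP11 the log2 difference from the Neurog3 gate was -1.97 (adjusted p = 7.5e-06).

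Mesenchyme-gated cells had the highest Cdkn1c of the 8 gates, 2870 ± 954 CPM (SD, n = 6). The summed level of 5 mesenchyme markers (Col1a1, Col3a1, Col1a2, Pdgfra, Vim) averaged 597 CPM in the Neurog3+Fev gate (range 269 to 1157), 353 CPM in the Fev gate (39.4 to 729), 1119 CPM in the Neurog3 gate (610 to 1606) and 2176 CPM in the Sox9/Spp1 gate (854 to 5731), with no marker at 0. These averages cover 7 experiments in the Sox9/Spp1 gate and 4 in the Neurog3 gate. In EP10, EP11, EP12 and EP14 Cdkn1c was at 1166, 611.4, 467 and 486.9 CPM in the Sox9/Spp1 gate. In the Neurog3 gate of the same experiments it was at 605.4, 667.6, 687.1 and 732.4 CPM. With collagen-bearing cells (2 or more transcripts) left out, the Sox9/Spp1 gate kept 8 of 32 cells in EP10 and 9 of 24 in EP14, too few for a sum. In EP11 and EP12 its Cdkn1c was then at 576.3 and 474.7 CPM, against 655.8 and 690.5 CPM in the Neurog3 gate. Cdkn1c was not called between these gates in any of 22 alternatives. Without cells that had 2 or more collagen transcripts, Cdkn1c was at 57.7, 290.8 and 124 CPM in the Neurog3+Fev gate of EP10, EP12 and EP14, against 253.2, 690.5 and 525.8 CPM in the Neurog3 gate, so the gates overlapped but each experiment kept its direction. EP10 moved most, with 14 of 18 Neurog3+Fev-gated and 12 of 27 Neurog3-gated cells left. In these cells Cdkn1c differed from the Neurog3 gate by -1.65 in the Neurog3+Fev gate (adjusted p = 1.4e-05) and by -2.16 in the Fev gate (adjusted p = 4.9e-09). Of the imprinted genes near Cdkn1c, 4 of 5 tested fell in the Neurog3+Fev gate relative to the Neurog3 gate, where 29.2% of all genes were called. They included H19 (-3.21), Kcnq1 (-1.90) and Slc22a18 (-1.89). The list summed to 10600 CPM in the mesenchyme gate, 3840 CPM in the Neurog3 gate and 1237 CPM in the Neurog3+Fev gate. The part of mesenchyme transcripts in this fall was not tested.

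**Figure D3:**
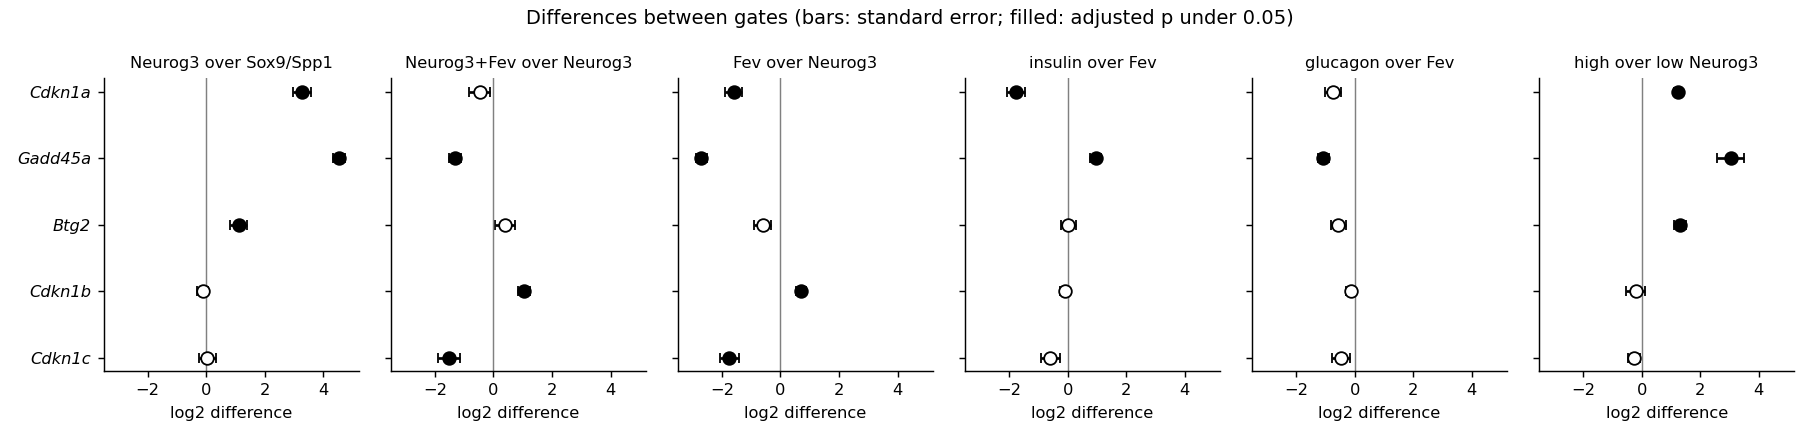
Log2 difference of each gene in 6 comparisons (horizontal axis), with the first-named group over the second; bars are standard errors and filled points have an adjusted p under 0.05. Cdkn1a, Gadd45a and Btg2 lie right of 0 in the Neurog3 over Sox9/Spp1 and the high over low Neurog3 panels, and Gadd45a lies left of 0 in Neurog3+Fev and Fev over Neurog3, at 0.96 in insulin over Fev and at -1.08 in glucagon over Fev.

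Among Neurog3-gated cells, those with a Top2a or Mki67 transcript had less Gadd45a and Btg2 than those without. Gadd45a was at 567.3, 698.3 and 535.6 CPM in cycling cells (EP10, EP11, EP12), against 1865, 1075 and 809.6 CPM in non-cycling cells (EP11, EP12, EP14), without overlap. The log2 difference was -1.14 ± 0.216 (adjusted p = 0.00266, edgeR's quasi-likelihood test). Btg2 was at 414.5, 384.6 and 335.1 CPM in cycling cells, against 569.9, 647.7 and 521.9 CPM in non-cycling cells, a log2 difference of -1.19 ± 0.343 (adjusted p = 0.0466). Cdkn1a was at 487.6, 809.6 and 694.9 CPM in cycling cells and 1554, 1413 and 634.7 CPM in non-cycling cells, and did not pass (-0.76, adjusted p = 0.205). Cdkn1b (-0.13) and Cdkn1c (-0.24) did not pass either. These were 2 of 5 members, against 5.53% of the 9023 genes tested.

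Only EP11 and EP12 gave both classes of Neurog3-gated cells. The other Neurog3 sums entered the same fit through the Sox9/Spp1 sums of their experiments, and EP16 and EP18 added Sox9/Spp1 sums alone. In both EP11 and EP12, Gadd45a, Btg2 and Cdkn1a were lower in cycling cells and Cdkn1c was higher. Cdkn1b was higher in EP11 and lower in EP12. Cdkn1a was at 809.6 and 694.9 CPM in cycling cells there, against 1554 and 1413 CPM in non-cycling cells. Cycling cells of EP11 and EP12 were deeper (medians of 23581 and 19165 transcripts, against 15596 and 13988 in non-cycling cells). Without EP11 Gadd45a was at -0.93 (adjusted p = 0.103), in cells with at least 5 Neurog3 transcripts at -0.47 (adjusted p = 0.547), and with at least 20 cells per sum, where no experiment gave both classes, at -0.27 (adjusted p = 0.876). Btg2 lost its call without EP10, EP12, EP14, EP16 or EP18 in turn (adjusted p between 0.0608 and 0.122), with DESeq2 (adjusted p = 0.148), in cells with at least 5 Neurog3 transcripts (-0.85, adjusted p = 0.391) and without the experiment block (-0.61, adjusted p = 0.885); without that block Gadd45a was at -1.03 (adjusted p = 0.252). Cdkn1a was called with no filter on low counts (-0.73, adjusted p = 0.00305) and with at least 20 cells per sum (-1.46, adjusted p = 0.00824), where Cdkn1c was called too (-1.41, adjusted p = 6.2e-04). Of the Neurog3 step genes 10 of 18 were lower in cycling cells, led by Cck (-1.67), and Gadd45g was lower as well (-1.81).

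In the Sox9/Spp1 gate none of the 5 members was called between cycling and non-cycling cells by edgeR or DESeq2, with 1 at an unadjusted p under 0.05, while 4.67% of genes were called. Gadd45a was at a log2 difference of -0.73 (adjusted p = 0.174), and without EP16 it was at -1.03 (adjusted p = 0.0313). Cdkn1a was at 97.3 ± 64.9 CPM in cycling cells (SD, n = 7) and 141 ± 113 CPM in non-cycling cells (SD, n = 4). No member passed the test of a difference in the cycling effect between the Neurog3 and the Sox9/Spp1 gate: edgeR and DESeq2 called 0 of 5, 1 had an unadjusted p under 0.05, and 0.377% of genes were called. For Btg2 the difference of effects was -1.11 (2 standard errors spanning -2.01 to -0.20, adjusted p = 0.383), but it was called with no filter on low counts (-1.15, adjusted p = 0.0014), on live plates alone (-1.76, adjusted p = 0.049) and with at least 20 cells per sum (-3.78, adjusted p = 1.7e-16). That last setting also called Cdkn1a (-1.51, adjusted p = 0.0321) and Cdkn1c (-1.54, adjusted p = 0.00188), with no Neurog3 experiment that held both classes and 2 residual degrees of freedom. A cycling transcript and a Cdkn1a transcript were found together in 59 of 143 Neurog3-gated cells. Of Neurog3-gated cells with Cdkn1a 45.74% had a cycling transcript, against 50% of those without. At equal depth these shares were 18.75% and 25.4%.

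**Figure D4:**
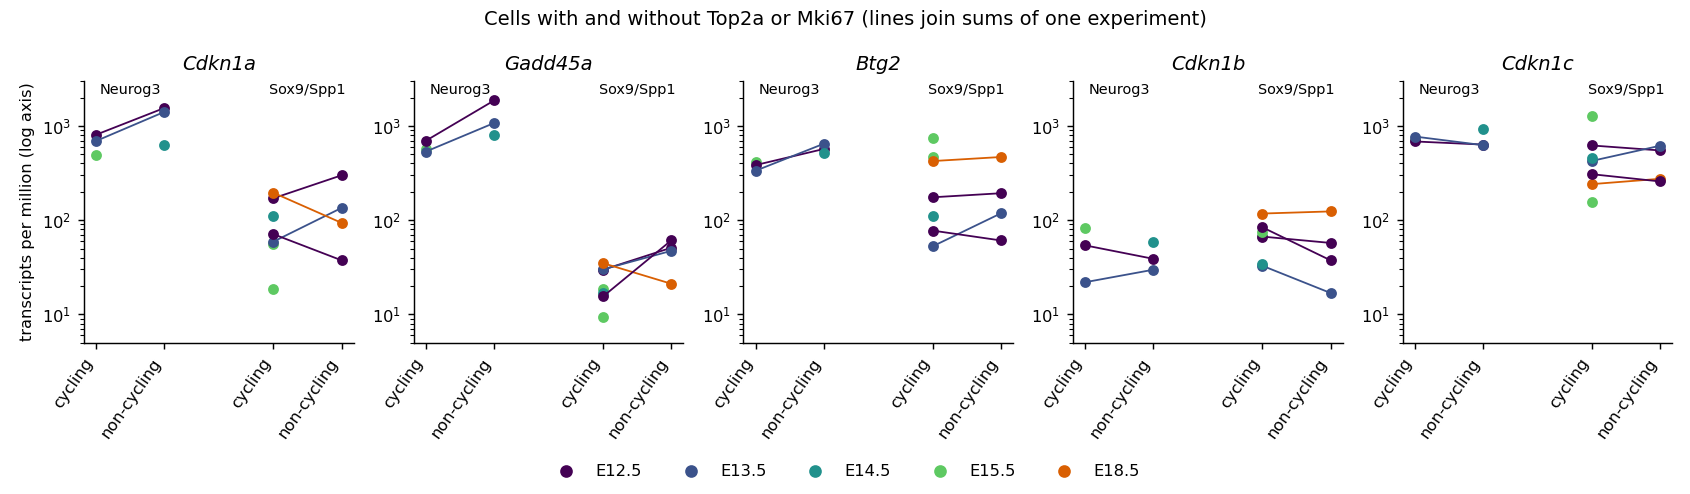
Level of each gene (vertical log axis, CPM) in cells with Top2a or Mki67 (cycling) and without (non-cycling), in the Neurog3 and Sox9/Spp1 gates; points are experiments, coloured by stage, joined where both classes had at least 10 cells. Gadd45a of the Neurog3 gate lies at 535.6 to 698.3 CPM in cycling cells and 809.6 to 1865 CPM in non-cycling cells.

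Insulin-gated cells had less Cdkn1a and more Gadd45a than Fev-gated cells, 2 of 5 members against 17.5% of genes. Cdkn1a was at 65.94, 53.11, 58.89, 49.82 and 97.68 CPM in the insulin gate (EP10, EP12, EP14, EP16, EP17), against 186.9 to 1042 CPM in the Fev gate, without overlap. Its log2 difference was -1.76 ± 0.307 (adjusted p = 1.4e-04). Gadd45a was at 138.3, 224.3, 201, 79.84 and 118.6 CPM in the insulin gate, against 79.29, 121.9, 85.17, 87.6 and 46.73 CPM in the Fev gate of the same experiments, higher in 4 of 5. The log2 difference was 0.96 ± 0.182 (adjusted p = 3.7e-04), lost without the experiment block (0.70, adjusted p = 0.168), in thinned cells (0.93, adjusted p = 0.0608) and on live plates alone (0.13, adjusted p = 0.950), where Cdkn1a was at -2.29 (adjusted p = 0.060). The live plates of EP16 include a plate with a P6 code in its title, which marks MIP-GFP on the other plates. Cdkn1b (-0.10), Cdkn1c (-0.59) and Btg2 (0.02) did not pass.

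Glucagon-gated cells had less Gadd45a than Fev-gated cells and no other member passed, 1 of 5 against 7.09% of genes. Gadd45a was at 11.66 to 82.51 CPM over 7 glucagon sums and 46.73 to 191.5 CPM over 6 Fev sums, and lower in the glucagon gate in 6 of 6 experiments that had both. Its log2 difference was -1.08 ± 0.186 (adjusted p = 4.4e-04), and on live plates alone -1.68 (adjusted p = 0.745). Cdkn1a did not pass (-0.73, adjusted p = 0.103), but was called in 5 of 23 alternatives: no filter on low counts (-0.76, adjusted p = 0.0488), MIP-GFP plates alone (-0.90, adjusted p = 4.1e-04), thinned cells (-1.07, adjusted p = 0.01005), only these 2 gates in the fit (-0.86, adjusted p = 1.8e-04) and the authors' cells (-0.90, adjusted p = 0.0247). Btg2 (-0.56, adjusted p = 0.197) was called with only these 2 gates in the fit (-0.59, adjusted p = 0.00386). The Gadd45a means were 152 ± 59.4 CPM in the insulin gate (SD, n = 5) and 44 ± 23.1 CPM in the glucagon gate (SD, n = 7), with 1 insulin sum, EP16, inside the glucagon range; the 2 hormone gates were not tested against each other.

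Cdkn1a in glucagon-gated cells was 579.5 and 251.5 CPM in EP11 and EP18 at E12.5, against 87.52 to 163 CPM in the other 5 experiments at later stages. Ghrl, the ghrelin gene, stood at 618 and 361 CPM in the glucagon gate of EP11 and EP18, and at 2347 CPM in that of EP16, at 399 CPM in that of EP10 and between 17.0 and 171 CPM in the other 3. Ghrl was highest in EP16, a sum of 15 cells, where Cdkn1a was at 139.9 CPM. Without cells that had 10 or more Ghrl transcripts, Cdkn1a was at 536.7 CPM in the EP11 glucagon gate (184 of 262 cells left) and 1137 CPM in the EP11 Fev gate (24 of 30 cells left). Mboat4, which encodes the enzyme that acylates ghrelin, went from 246.5 to 193.9 CPM and from 312.4 to 268.7 CPM in these gates. The part of ghrelin cells in the Cdkn1a level was not tested. The 7 cells of the ghrelin gate had 2460 CPM of Cdkn1a in EP10 (3 cells), 1604 CPM in EP12 (1 cell), 3927 CPM in EP14 (1 cell) and 326 CPM in EP16 (2 cells), counts too few for a test.

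Stage was followed with the day as a number. In Neurog3-gated cells none of the 5 members was called by edgeR or DESeq2 over EP10, EP11, EP12 and EP14, with 1 at an unadjusted p under 0.05, and 0.101% of genes were called. In insulin-gated cells Cdkn1c fell by 0.46 per day on the log2 scale (SE 0.081, adjusted p = 0.0124) and Gadd45a by 0.24 per day (SE 0.0495, adjusted p = 0.0255), 2 of 5 members against 5.43% of genes. Cdkn1c was at 212.5 CPM at E13.5, 120.4 CPM at E14.5, 59.54 and 49.62 CPM at E15.5 and 31.79 CPM at E18.5. Gadd45a was at 224.3, 201, 138.3 and 118.6, and 79.84 CPM at those stages. Cdkn1b (0.31, adjusted p = 0.0573) and Btg2 (0.35, adjusted p = 0.0685) did not pass with edgeR but did with DESeq2 (adjusted p = 0.0148 and 0.0082), in 5 and 4 of 16 alternatives in all. Both calls rest on single experiments: without EP16 the adjusted p was 0.109 for Cdkn1c and 0.71 for Gadd45a, without EP12 it was 0.0964 for Cdkn1c and 0.154 for Gadd45a, without EP14 it was 0.122 for Gadd45a, and in thinned cells it was 0.0542 for Cdkn1c and 0.138 for Gadd45a. Without the plates of conflicting stage titles the values were -0.45 per day for Cdkn1c (adjusted p = 0.0149), -0.24 for Gadd45a (adjusted p = 0.0273) and 0.37 for Btg2 (adjusted p = 0.0498). The immediate early sum was 1969, 2950, 5460 and 3455, and 6917 CPM in these insulin sums, where Btg2 was at 182.9, 286.7, 530 and 446.6, and 551.3 CPM; its part was not tested.

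**Figure D5:**
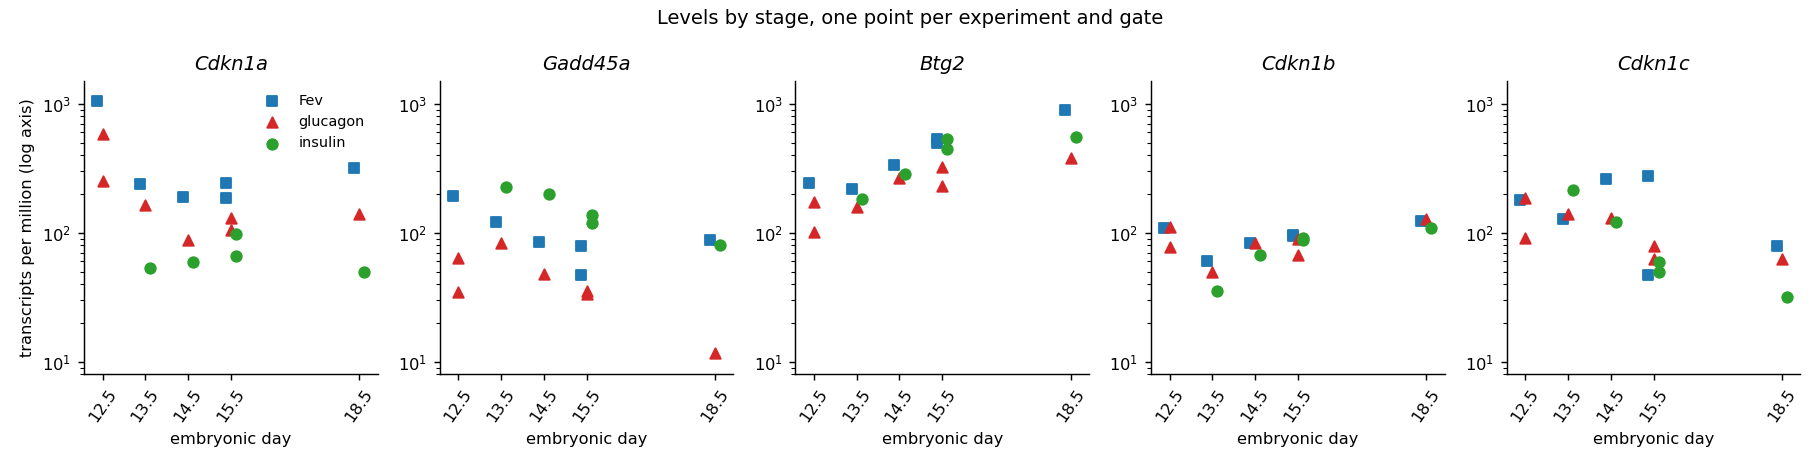
Level of each gene (vertical log axis, CPM) by embryonic day in the Fev, glucagon and insulin gates, 1 point per experiment. Cdkn1a of the Fev and glucagon gates is highest at E12.5, at 1042 and 579.5 CPM, while Cdkn1c of the insulin gate goes down to 31.79 CPM at E18.5.

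Ranked by mean, Cdkn1a ran from the Neurog3 gate (882.5 CPM) through Neurog3+Fev (505 ± 118 CPM), Fev (370 ± 333 CPM), glucagon (208 ± 172 CPM), acinar (122 ± 21.4 CPM), Sox9/Spp1 (94.6 CPM) and insulin (65.1 ± 19.2 CPM) to mesenchyme (13.52 ± 10.7 CPM). The mean ± SD ranges of neighbours in this order overlap from Neurog3 to insulin. Gadd45a had the same leading pair, Neurog3 and Neurog3+Fev, then insulin, Fev and glucagon, with mesenchyme, Sox9/Spp1 and acinar all at 25.8 CPM or less. Btg2 had its highest mean in Neurog3+Fev (613 ± 57.1 CPM) and its lowest in mesenchyme (184 ± 131 CPM), and Cdkn1b was between 37.9 and 96.5 CPM in all 8.

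The genes most like each member were ranked by Pearson correlation of log2(CPM + 1) over the 32 sums of 6 gates, among 11742 genes; sums of 1 experiment share plates. For Cdkn1a these were Pla2g2d (0.88), Igsf8 (0.81) and Mboat4 (0.81), the last the enzyme that acylates ghrelin. For Gadd45a they were Lrrn2 (0.90), Pax4 (0.88), an endocrine transcription factor, and Megf11 (0.87). For Cdkn1c they were Igf2 (0.92), H19 (0.91), its imprinted neighbours, and Mmp11 (0.90). Btg2 was nearest to the immediate early gene Arc (0.77), then Tmem63b (0.74) and Itpr3 (0.73), and Cdkn1b to Rabac1 (0.76), Tm4sf4 (0.72) and Cuedc1 (0.72). Among the members, Cdkn1a and Gadd45a had the highest correlation (0.66) and Cdkn1b and Cdkn1c the lowest (-0.57).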

How the data were processed

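The deposited table holds expected counts: the authors' transcript estimates per gene and well, corrected for collisions of molecular identifiers (a value for 1 transcript is stored as 1.0001), rounded here to whole numbers. The submitters' processing notes name BWA, Seurat and mm10, with no versions. Of 5760 wells on 15 plates, 4318 passed; 8 further wells, each over 5 times the median depth of its plate, may hold doublets and were removed, with no doublet caller. No wells shared identical values, and 1536 columns that matched no sample were not used. Plates held 1150008 to 9490746 transcripts, with medians of 6782 to 27217 a cell. The sort and stage follow the labels' characteristics. Of 58 libraries 12 carry another stage in the title, and 4 without a plate code were not analysed here. An EP16 plate of 301 cells was counted as live, although its title has a P6 code, which marks MIP-GFP on the other plates. Leaving it out was an alternative, in which Cdkn1b was called for days in insulin cells.

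Transcripts were summed per experiment and gate with at least 10 cells and tested with edgeR 4.0.16 in R 4.3.3. The settings were TMM, filterByExpr, quasi-likelihood, Benjamini-Hochberg over all genes tested and adjusted p under 0.05. The experiment was a block in comparisons of gates and classes, because gates of 1 experiment come from the same set of plates. Gates drew on its live and MIP-GFP plates in different proportions, so the block does not separate sort from gate. The tests were run on simulated data for the Neurog3 against Sox9/Spp1, cycling Neurog3 and Neurog3 level comparisons only. Those data held no effect shared by the sums of an experiment, so they did not check the block or the sorts. DESeq2 1.42.0, size factors, no filter, single sorts, other gates, thinning to 2000 transcripts and leaving out each experiment were alternatives. Named genes are the members, up to 3 genes in each direction from each list, and the 3 most correlated with each member. The members and lists were chosen with earlier results of these data known. Descriptions used Python 3.11.15, and promoters are from RefSeq.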

Additional observations from a re-analysis of the deposited data

Results flagged for a closer look

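Of 35 groups of sums tested for a sample far from the others, 2 were picked out, which is near the rate of about 1 in 20 that chance gives. Both are Cdkn1a in EP11, at E12.5. In the Fev gate EP11 stood at 1042 CPM, and its gap to the next of 6 sums was 0.85 of the whole range. In the glucagon gate EP11 stood at 579.5 CPM, with a gap of 0.667 of the range over 7 sums. The MIP-GFP plate of EP11 is titled with another stage (E15.5) than its characteristic gives, and so is that of EP18. Mboat4 stood at 312 CPM in the EP11 Fev gate and 247 CPM in the EP11 glucagon gate. Whether anything beyond chance sets EP11 apart was not tested.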

How the results depend on the processing

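Of 1037 values of the members under other settings, 963 kept their side of the threshold, 40 lost a call and 33 gained one. The 963 include values that changed sign where neither setting called the gene. An example is Cdkn1c in the Neurog3 against the Sox9/Spp1 gate (-0.30 to 0.48). Where a setting did call the gene, 1 value reversed: Cdkn1a between high and low Neurog3 was at -0.34 with cells thinned to 2000 transcripts. Cdkn1a and Gadd45a in the Neurog3 against the Sox9/Spp1 gate were called in all 22 alternatives run (2.85 to 3.94 and 4.32 to 5.52). Gadd45a and Cdkn1a in the Fev against the Neurog3 gate, and Gadd45a in the Neurog3+Fev against the Neurog3 gate, were called in all 23. Of 213 counts of called genes and shares, 145 stayed within 1.5 times and 68 moved; the cause of these moves was not tested.

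Without the experiment as a replicate block, the counts were 898 for the Neurog3 against the Sox9/Spp1 gate (1511 with it), 2172 for Neurog3+Fev (3432), 1209 for insulin (2050), 273 for glucagon (832), 185 for cycling Sox9/Spp1 cells (421), 136 for cycling Neurog3 cells (499), 0 for the difference of the cycling effects (34; edgeR, 330 at an unadjusted p under 0.05; DESeq2 with the block 39) and 387 for the Neurog3 level (899). Live plates alone gave 535 for Neurog3 against Sox9/Spp1, 959 for Neurog3+Fev, 1360 for Fev against Neurog3 (4184), 561 for insulin, 0 for glucagon (809 unadjusted; DESeq2 on all plates 801) and 287 for cycling Neurog3 cells. MIP-GFP plates alone gave 1270 for Neurog3+Fev, 2152 for Fev and 1314 for glucagon. Thinning gave 909, 93, 749, 504, 260 and 22 for the 5 gate steps and the cycling Sox9/Spp1 cells, 0 for the level (20 of 342 unadjusted), 0 for days in Neurog3 cells (63 unadjusted) and 62 for days in insulin cells (567). At least 5 Neurog3 transcripts gave 2766 for Neurog3 against Sox9/Spp1, 1765 for Neurog3+Fev, 191 for cycling Neurog3 cells and 3 for the difference. At least 2 transcripts of Top2a and Mki67 gave 687, 822 and 98 for the 3 cycling counts. No filter gave 789 and 189 for cycling Neurog3 cells and the difference, 1700 for the level, and 71 (9 with the filter) and 1010 for days in Neurog3 and insulin cells. DESeq2 gave 274, 521 and 26 for cycling Neurog3 cells, the level and days in Neurog3 cells. At least 20 cells per sum gave 797 and 325 for cycling Neurog3 cells and the difference. The authors' cells gave 1335 for insulin and 0 for days in Neurog3 cells (277 unadjusted), and leaving out plates with conflicting titles gave 1 for days in Neurog3 cells.

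Leaving out each experiment in turn gave 683 to 1740, 1895 to 3608, 3116 to 4229, 1025 to 2100 and 255 to 985 for the 5 gate steps, 275 to 507, 156 to 514 and 6 to 61 for the 3 cycling counts, 437 to 899 for the level, 0 to 242 and 1 to 1112 for days in Neurog3 and insulin cells. Counts that moved over 1.5 times were, without EP12, 683 (Neurog3 against Sox9/Spp1), 316 (glucagon), 275, 156 and 6 (cycling), 0 and 263 (days; 429 unadjusted for the 0, with DESeq2 on all experiments 26); without EP14, 997, 1895, 1025 and 255 (the gate steps other than Fev against Neurog3), 61 (difference), 4 and 217 (days); without EP10, 464 (glucagon), 329 (cycling Neurog3), 437 (level) and 174 (days in Neurog3 cells); without EP11, 13 (difference) and 242 (days in Neurog3 cells); and for days in insulin cells 1 without EP16 and 1112 without EP17. The cycling share was lower in the Neurog3 gate without each of 4 experiments. No filter moved the median of all genes by -0.11 (Neurog3 against Sox9/Spp1), -0.12 (difference) and -0.13 (level), and live plates alone by -0.15 (Neurog3+Fev) and -0.43 (glucagon). Single sorts or the authors' cells gave no value for the level, nor 20 cells per sum.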
